A study of Rattus norvegicus with 6 samples.

Results

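The genes described here are 10 amino acid transporters and transporter partners of the kidney: Slc3a1, Slc3a2, Slc7a7, Slc7a8, Slc7a9, Slc6a18, Slc6a19, Slc1a1, Cltrn and Slc43a2. They were chosen by name, with earlier results of these data known, and each was represented by its probeset with the highest mean over the arrays. All 10 were among the 14506 genes that had a probeset annotated with a single gene symbol, and each of the 10 had exactly 1 such probeset. Glomerular isolates of adult male Sprague-Dawley rats were compared on 6 Affymetrix Rat GeneChip 1.0ST arrays, 3 of each isolate. The PEC-enriched isolates were retained on a 90 µm sieve. In them, capsulated glomeruli, which keep Bowman's capsule and its parietal epithelial cells (PECs), outnumbered decapsulated glomeruli in the study's counts. The PEC-deprived isolates were collected on a 75 µm sieve and were mostly decapsulated glomeruli. No cells were cultured, the labels name no genetic change or agent, and RNA was made from isolates of individual rats. Both isolates are mixtures that also hold podocytes, endothelium, mesangium and some tubular fragments, so they are not pure PECs. The study's counts of tubular fragments varied between preparations. A PEC-deprived preparation had the highest share of tubules, and the other PEC-deprived preparations had lower shares than every PEC-enriched preparation. The array labels do not say which preparation is which.

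Amino acids that pass the glomerular filter are taken back almost completely in the proximal tubule. Carriers in the brush border bring them into the cell, and other carriers in the basolateral membrane pass them on to the blood. Several of these carriers work only as pairs: a light chain of the Slc7 family forms the transport path, and a heavy chain, Slc3a1 or Slc3a2, brings it to the membrane. Slc3a1 with Slc7a9 carries cystine and cationic amino acids at the lumen, and mutations of either cause cystinuria. Slc3a2 is the heavy chain of many light chains in most tissues, among them Slc7a7 and Slc7a8 of the basolateral side. Slc6a19 is the main luminal carrier of neutral amino acids, and it needs Cltrn, also called collectrin, to reach the renal brush border.

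The expression values are log2 values of the RMA algorithm, 1 for each probeset and array, so that a difference of 1 is a doubling of the signal. Over all 29215 probesets they ran from 2.13 to 13.87, with array medians between 6.69 and 6.75. No detection calls were used, so signal over background is unknown, and levels were not compared between genes. Each log2 fold change is the mean of PEC-enriched arrays minus that of PEC-deprived arrays. Limma with Benjamini-Hochberg adjustment over all probesets served as the test, at an adjusted p under 0.01. With 3 arrays per group the precision of each value is limited, and the labels do not say whether both isolates came from the same rats. The study's methods give n = 3 animals for the isolations, and no source used here links arrays to animals.

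All 10 genes had higher means in the PEC-enriched isolates, against 44.8% of all genes. Their median log2 fold change was 0.99, where the median of all genes was -0.02. The highest was that of Cltrn, at 1.45 or 2.73-fold, and the lowest that of Slc3a2, at 0.22 or 1.17-fold. None of the 10 passed the test, and limma called 0.0% of all probesets. At an unadjusted p under 0.05, 9 of the 10 were higher in limma, a class that held 7.96% of all genes. The 3 PEC-enriched arrays lay above the 3 PEC-deprived arrays in 5 of the 10, Cltrn, Slc3a1, Slc1a1, Slc7a7 and Slc43a2, and in 9.68% of all genes. Without PEC-deprived replicate 1 the groups were apart in 9 of the 10 and in 15.1% of all genes, and without PEC-enriched replicate 3 in 9 of the 10 and in 15.6% of all genes. The count was 6 without PEC-enriched replicate 1 (16.4% of all genes), and 5 without PEC-enriched replicate 2 (12.6%), PEC-deprived replicate 2 (12.0%) or PEC-deprived replicate 3 (13.2%). The regularised Bayesian test borrows variance from probesets of similar level, after the kind of test the study's methods name. It called those same 5 genes at an adjusted p under 0.01, where it called 1.41% of all genes higher. These 5 are also in the study's own list of differentially expressed genes, which was chosen on the same arrays, so their direction is not independent evidence.

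**Figure D1:**
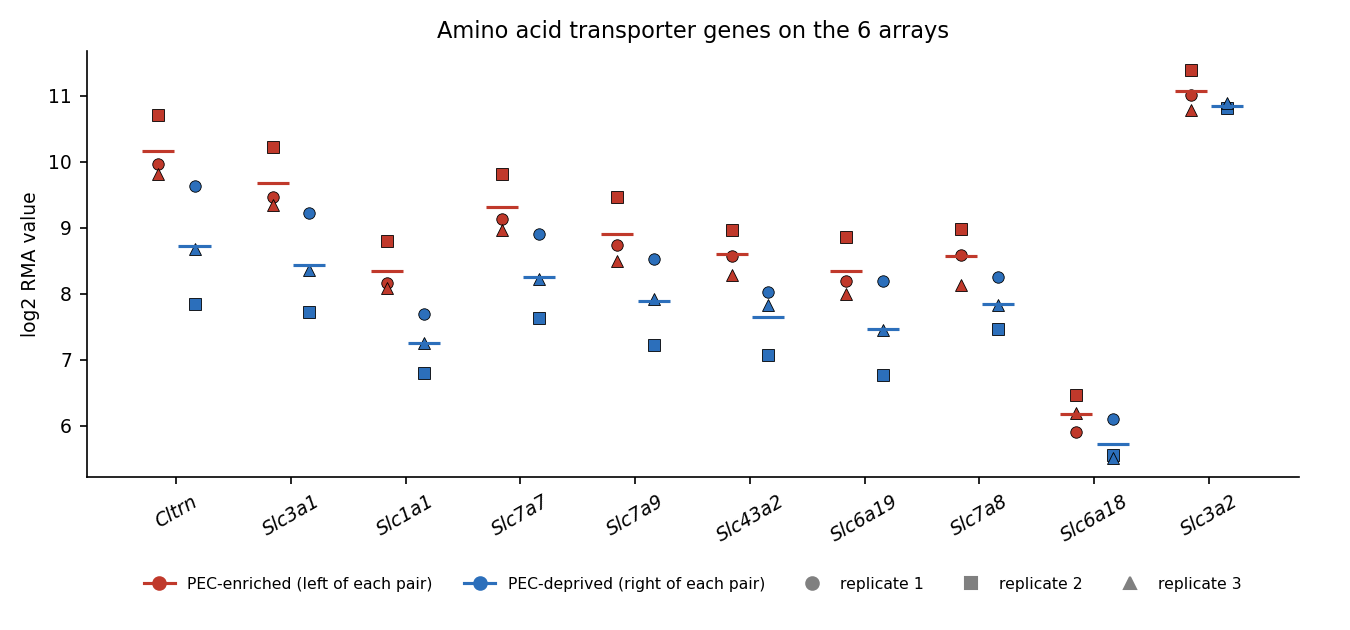
log2 RMA values (y axis) of the 10 genes (x axis, ordered by fold change), each point 1 array with its shape giving the replicate, and lines marking group means. In Cltrn, Slc3a1, Slc1a1, Slc7a7 and Slc43a2 all PEC-enriched arrays lie above all PEC-deprived arrays, while the Slc3a2 groups overlap.

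The heavy chains differed most in log2 fold change among the 8 pairs of genes compared, at 1.03 for Slc3a1 minus Slc3a2. Slc6a18 minus Cltrn was close, at -0.99. With PEC-enriched replicate 3 left out the latter difference was the larger (1.05 and -1.16), as it was without PEC-deprived replicate 3 (0.97 and -1.07). Slc3a1, the heavy chain of the luminal cystine carrier, had log2 values of 9.47, 10.23 and 9.35 on PEC-enriched replicates 1 to 3 and of 9.22, 7.72 and 8.36 on PEC-deprived replicates 1 to 3. The groups were 0.13 apart, with PEC-deprived replicate 1 close below the lowest PEC-enriched array. The means of 9.68 ± 0.477 and 8.43 ± 0.752 (SD, n = 3 arrays each) gave a log2 fold change of 1.25 (SE 0.371, adjusted p = 0.302 in limma). The regularised Bayesian test gave it an adjusted p of 0.00583.

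Slc3a2, the heavy chain that most cell types use, stood at 11.02, 11.39 and 10.79 on the PEC-enriched arrays and at 10.83, 10.81 and 10.89 on the PEC-deprived arrays. The PEC-deprived arrays spanned 0.08 and lay inside the PEC-enriched range, which spanned 0.61. Its log2 fold change was 0.22, with a 95% interval from -0.12 to 0.57 (limma adjusted p = 0.715). Without PEC-enriched replicate 2, the highest of the arrays, it was 0.06. The difference in log2 fold change between Slc3a1 and Slc3a2 was 1.03. Taken array by array, Slc3a1 minus Slc3a2 was higher on all PEC-enriched arrays than on all PEC-deprived arrays (exact permutation test, two-sided, p = 0.1, adjusted p = 0.16 over 8 pairs of genes). This is the smallest p that 3 arrays against 3 allow, so no pair could pass a threshold of 0.05.

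The upstream sequences of both heavy chain genes and of Cltrn are shown because these genes mark the low and high ends of the fold changes. They are the 250 bases before a start site in RefSeq for GRCr8, 5′ to 3′ on the gene's strand. Matches to the searched motifs are in capitals. For Slc3a1 this start site lies inside the annotated gene, whose span reaches base 15396695, so its window is not upstream of the whole gene. Motifs of HNF1 and HNF4, transcription factors of the proximal tubule, were searched on both strands of windows that also held the 50 bases after the start. All 10 genes had such a window, and Slc3a2 had a second one for another start site, which is not printed and held no match.
Slc3a1, chr6:15394750-15394999, minus strand: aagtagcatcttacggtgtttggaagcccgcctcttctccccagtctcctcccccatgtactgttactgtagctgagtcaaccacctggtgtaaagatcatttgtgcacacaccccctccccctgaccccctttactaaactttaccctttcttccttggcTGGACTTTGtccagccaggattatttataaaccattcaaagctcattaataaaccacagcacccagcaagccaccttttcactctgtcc
Slc3a2, chr1:215048065-215048314, minus strand: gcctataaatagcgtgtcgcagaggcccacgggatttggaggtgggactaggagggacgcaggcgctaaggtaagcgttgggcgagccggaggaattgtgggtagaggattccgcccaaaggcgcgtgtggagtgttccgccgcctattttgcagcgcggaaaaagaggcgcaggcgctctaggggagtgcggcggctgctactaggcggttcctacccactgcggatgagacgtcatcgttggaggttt
Cltrn, chrX:34027125-34027374, minus strand: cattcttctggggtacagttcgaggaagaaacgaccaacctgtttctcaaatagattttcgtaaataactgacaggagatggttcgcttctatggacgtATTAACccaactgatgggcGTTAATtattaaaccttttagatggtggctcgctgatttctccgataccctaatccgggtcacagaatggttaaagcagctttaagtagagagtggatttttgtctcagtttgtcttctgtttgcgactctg
The capitals in Slc3a1 match CAAAGTCCA, a short HNF4 motif, on the opposite strand, and this motif was in 0.391% of all 33469 promoter windows and in 1 of the 10 genes. Those in Cltrn match GTTAAT, a core of the HNF1 motif, once on each strand. This core was in 7.45% of all windows and in 3 of the 10 genes, Cltrn, Slc6a19 and Slc6a18. The full HNF1 palindrome was in none of the 10 and in 1 of all windows, and the HNF4 direct repeat was in none of the 10 and in 3 of all windows. A match of letters is a description, and binding of either factor was not measured here.

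Slc7a9, Slc7a7 and Slc7a8, light chains of these heavy chains, each had higher means in the PEC-enriched isolates. Slc7a9, which transports cystine and cationic amino acids together with Slc3a1, had log2 values of 8.74, 9.47 and 8.50 on the PEC-enriched arrays and 8.53, 7.23 and 7.92 on the PEC-deprived arrays. PEC-deprived replicate 1 lay 0.03 above the lowest PEC-enriched array, so the groups just overlapped. The log2 fold change of 1.01 (SE 0.343, adjusted p = 0.351 in limma) was 0.24 below that of its heavy chain. Slc3a1 minus Slc7a9 lay apart between the groups by array, with deviations from its mean of 0.07, 0.10 and 0.19 on the PEC-enriched and 0.03, -0.17 and -0.22 on the PEC-deprived arrays (exact permutation test, p = 0.1, adjusted p = 0.16 over the 8 pairs). The gap between the nearest arrays of this pair was small beside the spread among the PEC-deprived arrays, whose SD was 0.132.

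Slc7a7, the basolateral exporter of cationic amino acids that is lost in lysinuric protein intolerance, had log2 values of 9.13, 9.82 and 8.97 on the PEC-enriched arrays. On the PEC-deprived arrays it stood at 8.91, 7.63 and 8.22. The groups were 0.06 apart, and the log2 fold change was 1.06 (SE 0.329, adjusted p = 0.322 in limma). Slc7a8, a basolateral exchanger of neutral amino acids, gave 8.59, 8.98 and 8.14 on the PEC-enriched and 8.25, 7.47 and 7.83 on the PEC-deprived arrays. PEC-deprived replicate 1 was above PEC-enriched replicate 3, and the log2 fold change was 0.72 (SE 0.246, adjusted p = 0.353 in limma). Both light chains had larger log2 fold changes than Slc3a2, the heavy chain they share, by 0.83 for Slc7a7 and 0.50 for Slc7a8. By array, Slc3a2 minus Slc7a7 was lower on every PEC-enriched array (exact permutation test, p = 0.1, adjusted p = 0.16), while Slc3a2 minus Slc7a8 overlapped between the groups (exact permutation p = 0.2, adjusted p = 0.229). The light chains differed from each other by 0.34 with overlapping groups (exact permutation p = 0.2, adjusted p = 0.229). Slc7a7 and Slc7a8 lie 300283 bases apart on chromosome 15 of GRCr8.

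The chaperone Cltrn and its client Slc6a19 had the same order of arrays within each group, with log2 fold changes of different size. Cltrn, the chaperone, had log2 values of 9.97, 10.71 and 9.82 on the PEC-enriched arrays and of 9.63, 7.85 and 8.68 on the PEC-deprived arrays. The groups were 0.20 apart, although the PEC-deprived arrays alone spanned 1.78. Means of 10.17 ± 0.476 and 8.72 ± 0.890 (SD, n = 3 arrays each) gave the log2 fold change of 1.45 (SE 0.418, adjusted p = 0.289 in limma), which ran from 1.01 without PEC-deprived replicate 2 to 1.90 without PEC-deprived replicate 1. Slc6a19, its client, had values of 8.20, 8.86 and 7.99 on the PEC-enriched and 8.19, 6.77 and 7.45 on the PEC-deprived arrays. PEC-deprived replicate 1 was level with PEC-enriched replicate 1, and the log2 fold change was 0.88 (SE 0.353, adjusted p = 0.432 in limma). It was 0.53 without PEC-deprived replicate 2.

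Slc6a18, a related carrier of glycine and other neutral amino acids, had log2 values of 5.90, 6.46 and 6.19 on the PEC-enriched arrays and 6.10, 5.55 and 5.51 on the PEC-deprived arrays. All of these lay below the array medians. The groups overlapped, and the log2 fold change was 0.46 (SE 0.194, adjusted p = 0.45 in limma). Its gene follows Slc6a19 on chromosome 1 of GRCr8, 1644 bases after the end of Slc6a19. The log2 fold changes of these neighbours differed by 0.42, with overlapping groups by array (exact permutation p = 0.3, adjusted p = 0.3). Set against Cltrn, Slc6a19 was lower by 0.57 in log2 fold change and Slc6a18 by 0.99. In both pairs every PEC-enriched array lay below every PEC-deprived array (exact permutation p = 0.1, adjusted p = 0.16 for each). Slc6a19 minus Cltrn varied little within groups, with an SD of 0.0424 over the PEC-enriched and 0.178 over the PEC-deprived arrays.

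**Figure D2:**
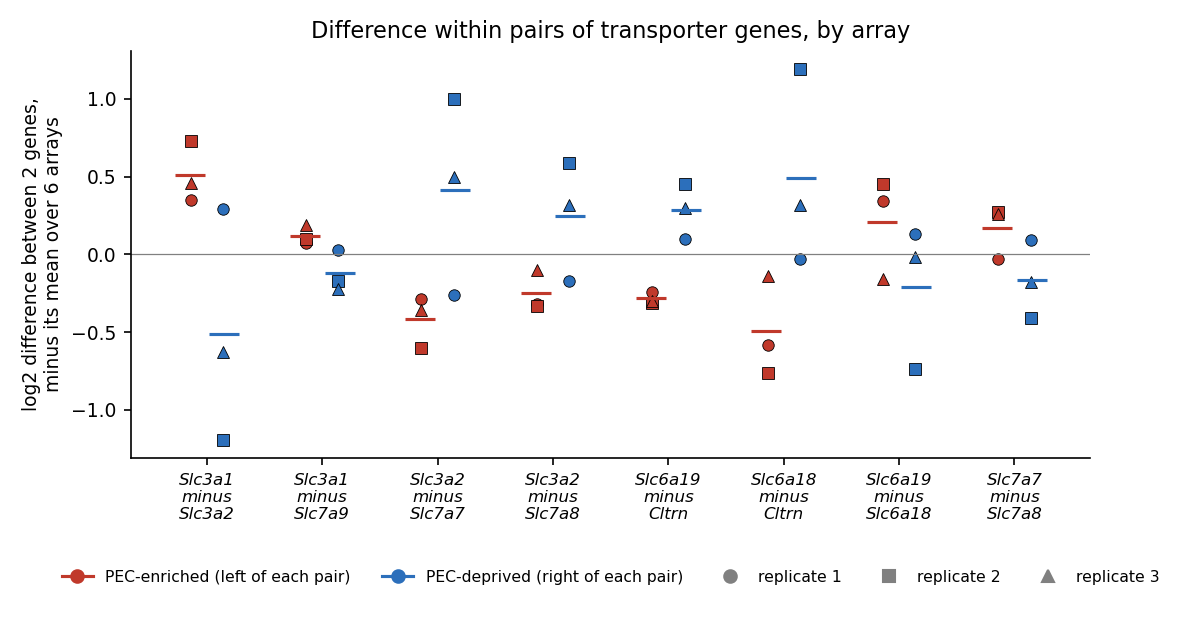
log2 value of one gene minus that of its partner, centred on the mean over the 6 arrays (y axis), for the 8 pairs (x axis). Points are single arrays and lines are group means, and the groups lie apart in 5 of the pairs, with the tightest PEC-enriched points in Slc6a19 minus Cltrn.

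Slc1a1 and Slc43a2, which work without a heavy chain, had log2 fold changes near 1. Slc1a1, the luminal carrier of glutamate and aspartate, had log2 values of 8.16, 8.80 and 8.09 on the PEC-enriched arrays and 7.70, 6.80 and 7.26 on the PEC-deprived arrays. Its groups were 0.39 apart, the widest gap among the 10 genes. The log2 fold change was 1.09, with a 95% interval from 0.51 to 1.68 (SE 0.255, adjusted p = 0.207 in limma), and the regularised Bayesian test gave an adjusted p of 0.00232, in each test the lowest of the 10. Slc43a2, a basolateral carrier that lets large neutral amino acids out of the cell, stood at 8.57, 8.97 and 8.29 against 8.03, 7.07 and 7.83. Its groups were 0.26 apart, with a log2 fold change of 0.96 (SE 0.260, adjusted p = 0.258 in limma).

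Ordered by log2 fold change, the 10 genes ran Cltrn, Slc3a1, Slc1a1, Slc7a7, Slc7a9, Slc43a2, Slc6a19, Slc7a8, Slc6a18 and Slc3a2. The 95% intervals of all neighbours in this order overlapped. Only that of Slc3a2 included 0.

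**Figure D3:**
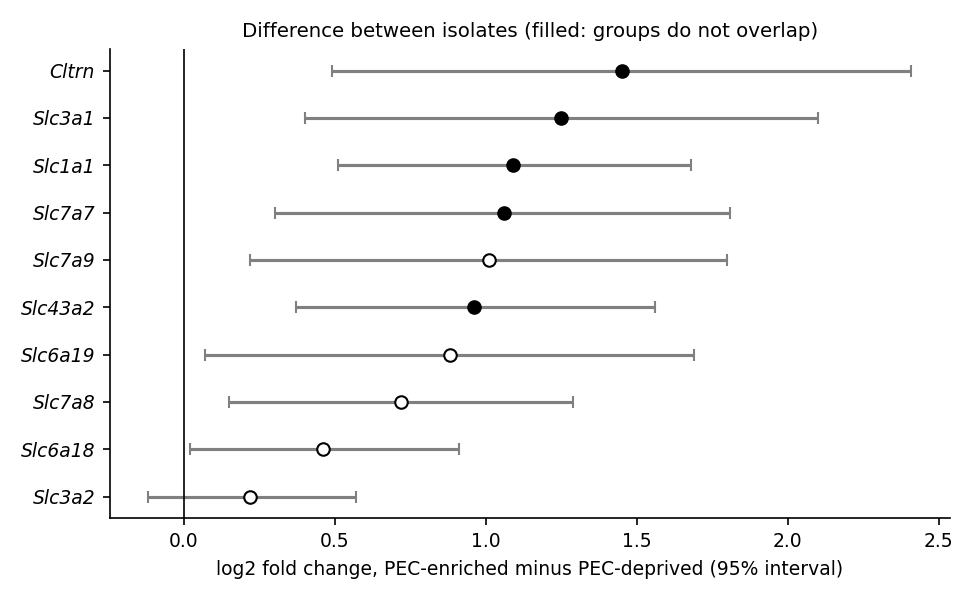
log2 fold change with its 95% interval from limma (x axis) for the 10 genes (y axis), from 3 arrays per group, with filled points where the groups do not overlap. The points run from 0.22 for Slc3a2 to 1.45 for Cltrn, and the Slc3a2 interval is the one that crosses 0.

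The arrays within each group differed in a shared order. PEC-enriched replicate 2 was the highest array of its group in all 10 genes, and 9 of them had the order 2, 1, 3, with Slc6a18 as the exception. Among PEC-deprived arrays 8 genes had the order 1, 3, 2 from high to low, with Slc3a2 and Slc6a18 as exceptions. Averaged over the 10 genes and centred on all arrays, the log2 values were 0.31, 0.91 and 0.15 on PEC-enriched and 0.07, -0.97 and -0.47 on PEC-deprived replicates 1 to 3. Markers of the proximal tubule other than these genes stood at 0.34, 0.93 and 0.26 and at 0.19, -1.20 and -0.52 on the same arrays. All 12 measured proximal tubule markers, of 15 listed, had higher means in PEC-enriched isolates, with a median log2 fold change of 1.06. In 6 of the 12 the PEC-enriched arrays all lay above, against 9.68% of all genes. The part of these markers in the differences of the transporters was not tested. PEC markers (11 measured) had centred means of 0.23, 0.76 and 0.38 on the PEC-enriched and -0.21, -0.64 and -0.52 on the PEC-deprived arrays. Of these 11, 10 were higher and Vcam1 was lower, at -0.27. Thick ascending limb markers (5 measured) had a median log2 fold change of 2.22 with all 5 higher. Of 7 distal tubule and collecting duct markers 6 were higher, with a median of 0.79. Cldn1, Pax2, Pax8, Cdh6, Lad1, Fras1 and Krt8 of the PEC list are in the study's own list of differentially expressed genes. So are all 5 thick ascending limb markers and some of the proximal and distal tubule markers. That list was chosen on these same arrays, so the direction of these markers is not independent evidence. The study also saw FRAS1, CDH6 and PAX8 protein in tubules. Podocyte markers (7 measured), which check that both isolates hold glomeruli, had a median of 0.06, and Nphs1, the slit diaphragm protein nephrin, had log2 values from 11.83 to 12.22 over all arrays. The medians of glomerular endothelium (7 measured), mesangium (5 measured) and leukocytes (6 measured) were -0.52, -0.39 and -0.40, with every marker lower. In such mixtures, more cells of a type and more RNA per cell cannot be told apart.

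**Figure D4:**
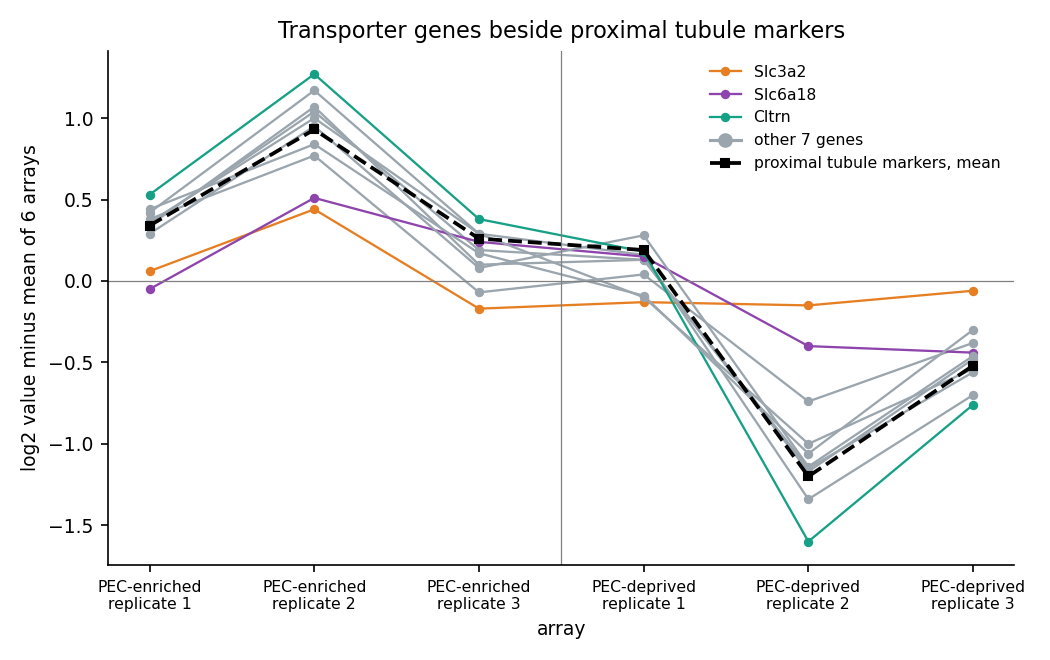
log2 values of the 10 genes and the mean of 12 proximal tubule markers (y axis, each minus its mean over the 6 arrays) on the 6 arrays (x axis), with lines joining the values of 1 gene. Most lines run close to the dashed marker mean, Slc3a2 stays between -0.17 and 0.44, and Cltrn has the widest range.

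With the proximal tubule marker mean subtracted on each array, differences between the isolates were smaller for most of the genes. Only this list was subtracted, and its own difference was 1.02. The distal tubule and collecting duct list differed by 1.01, the PEC list by 0.91 and the thick ascending limb list by 2.28. What subtracting those lists would leave was not tested. Slc7a9 had a remaining difference of 0.00, Slc7a7 of 0.04, Slc43a2 of -0.05 and Slc1a1 of 0.08, each with overlapping groups. Cltrn kept a difference of 0.43, with values of 0.19, 0.34 and 0.12 on the PEC-enriched and 0.00, -0.40 and -0.24 on the PEC-deprived arrays, and these groups did not overlap. Slc3a1 had a remaining difference of 0.23, also with groups apart. The remaining difference of Slc6a19 was -0.13, with PEC-enriched arrays below PEC-deprived arrays. Slc7a8, Slc6a18 and Slc3a2 stood at -0.30, -0.55 and -0.79, with overlapping groups. These differences are descriptions and were not tested.

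Other genes of amino acid transport were taken from a list of 54 related genes, of which 45 were measured. None of the 45 passed limma's test. Means were higher in 35 and lower in 10, and the median log2 fold change of 0.13 compares with -0.02 for all genes. At an unadjusted p under 0.05, 14 were higher and 1 was lower, against 7.96% and 5.65% of all genes. In 12 the PEC-enriched arrays all lay above, and in 1 all below, against 9.68% and 9.0% of all genes. Without PEC-deprived replicate 1 the first count was 23, against 15.1% of all genes. The regularised Bayesian test called 5 of the 45, all higher, where it called 1.41% of all genes higher and 0.234% lower. The luminal peptidases split small peptides into amino acids at the brush border. Means of all 9 measured were higher, with log2 fold changes from 0.03 to 1.16 and a median of 0.86. In 5 of the 9 the PEC-enriched arrays all lay above, against 9.68% of all genes.

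Pdzk1, a scaffold protein of the brush border, had a log2 fold change of 1.21 (SE 0.341, adjusted p = 0.279 in limma), the highest of the 45. Anpep, aminopeptidase N, had log2 values of 8.36, 8.80 and 8.23 on the PEC-enriched and 7.91, 6.74 and 7.25 on the PEC-deprived arrays, a log2 fold change of 1.16 (SE 0.278, adjusted p = 0.216 in limma). Mme, the peptidase neprilysin, which podocytes also make, stood at 1.12 (SE 0.225, adjusted p = 0.17 in limma) and Xpnpep2, an aminopeptidase of proline-containing peptides, at 1.11 (SE 0.303, adjusted p = 0.268 in limma). Hnf4a, a transcription factor of the proximal tubule, had values of 8.98, 9.38 and 8.83 against 8.67, 7.49 and 8.09, a log2 fold change of 0.98 (SE 0.279, adjusted p = 0.281 in limma). These 5 genes were those called by the regularised Bayesian test. They are also in the study's own list of differentially expressed genes, chosen on the same arrays, so their direction is not independent evidence. Slc15a4, a lysosomal carrier of histidine and peptides, was the gene whose PEC-enriched arrays all lay below, with 7.81, 7.79 and 7.37 against 7.97, 7.97 and 7.96 and a log2 fold change of -0.31 (SE 0.130, adjusted p = 0.447 in limma).

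A list of further light chains, mostly of Slc3a2, and of cationic carriers of the Slc7 family had smaller differences. Its 8 measured genes ran from -0.10 to 0.11, with a median of 0.01, and 0 had an unadjusted p under 0.05. Slc7a5, the light chain of many growing cells, stood at 0.00, Slc7a6 at 0.01, Slc7a10 at 0.01 and Slc7a11, the cystine-glutamate exchanger, at -0.01. The 8 measured carriers of systems A and N, which couple neutral amino acids to sodium, ran from -0.10 to 0.31, with a median of 0.11. Of the 16 other apical and basolateral carriers 10 stood higher and 6 lower, and their median was 0.14. Of these, Slc15a2, the high-affinity peptide carrier, had a log2 fold change of 0.73 (limma adjusted p = 0.304), and Slc7a13, a luminal partner of Slc3a1 in the late proximal tubule, 0.70 (limma adjusted p = 0.322) with overlapping groups. The Slc7 genes and these carriers were picked for mention after their values were seen.

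**Figure D5:**
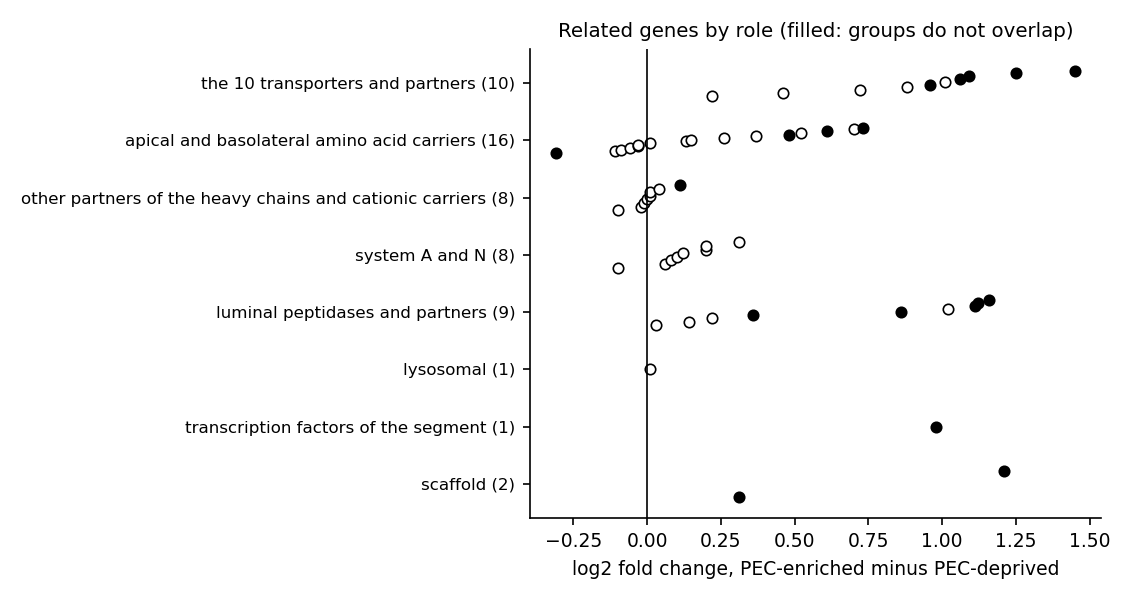
log2 fold changes (x axis) of the 10 genes and of the 45 related genes by role (y axis, with the number measured), each point 1 gene, filled where the groups of 3 arrays do not overlap. The luminal peptidases run from 0.03 to 1.16, while the list of other partners and cationic carriers stays between -0.10 and 0.11.

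The genes with the most similar pattern were sought among the 14496 other genes by the root mean square difference of centred log2 values over the 6 arrays, which share their preparation and normalization. For Slc3a1 they were Spp2 (0.0774), Cyp2c23 (0.0878) and Slc5a12 (0.103), the last of which is also one of the proximal tubule markers. For Slc3a2 they were Prom1 (0.0556), Aco1 (0.0574) and Grk3 (0.061), all with overlapping groups and log2 fold changes between 0.17 and 0.27. Kcnj16 (0.0803), Epcam (0.0905) and Acmsd (0.117) were nearest to Cltrn, with log2 fold changes of 1.40, 1.45 and 1.45.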

How the data were processed

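Total RNA from 3 PEC-enriched and 3 PEC-deprived glomerular isolates was hybridized to 1 array each. The authors adjusted the background, quantile normalized log-transformed intensities and summarized probesets with RMA, and the deposited values are taken as log2, the scale RMA gives. Which software and probeset definition they used is not given in the sources used here. Groups came from the sample titles. No arrays were identical, and correlations between them lay between 0.9816 and 0.9937.

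Differences were tested with two-sided moderated tests of limma 3.58.1 (R 4.3.3) over 29215 probesets without covariates. A regularised Bayesian test (prior weight 10, window of 101 probesets), replicate block, intensity trend, filters, median centring, cyclic loess and left-out arrays were alternatives. Both tests were also run on simulated data with independent noise for each probeset. That setting lacks the order of arrays that many genes share here, so it cannot decide between the tests. Pairs of genes were compared by exact permutation tests (SciPy 1.17.1). If isolates shared animals or batches, p-values do not reflect it. Symbols came from the platform annotation, which can be old, and 15279 of 15310 probesets with 1 symbol matched RefSeq by Entrez ID. Lists held genes not matched to such a probeset, which were not analysed here. Named were all 10 members, up to 5 highest and 3 lowest of the related genes with groups apart, and the 3 nearest patterns of Slc3a1, Slc3a2 and Cltrn. The members and lists were chosen with earlier results of these data known.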

Additional observations from a re-analysis of the deposited data

How the results depend on the processing

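The 10 transporter genes kept a higher mean in PEC-enriched isolates under each alternative in which they were tested, and Slc6a18 was not among the probesets above the median level. Their median log2 fold change of 0.99 ran from 0.68 to 1.28 with single arrays left out. The count called at an adjusted p under 0.01 was 0 in limma under each alternative and 5 with the regularised Bayesian test, and with arrays left out it stayed at 0. The count with groups apart ran from 5 to 9 with arrays left out. The share of all genes then ran from 12.0% to 16.4%, against 9.68% with all arrays. Among the 45 related genes the regularised Bayesian test called 5, all higher, where it called 1.41% of all genes higher. With probesets above the median level 19 of 26 had a higher mean, since fewer genes were tested. With arrays left out the count with all PEC-enriched arrays above ran from 13 to 23 of the 45, beside the same 12.0% to 16.4% of all genes. With the replicate number as a block limma also called 0 of the 10, with a median of 0.99. Deviations of same-numbered arrays correlated at -0.0287, 0.0519 and 0.1, so the numbers are not taken as pairs. Each gene has 1 probeset, so averaging probesets changes no value. Signal over background is unknown, so its effect on low values such as those of Slc6a18 was not tested.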

Other observations

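Markers of the early proximal tubule were all higher, while those of the late proximal tubule were mixed and some had low values. The 4 measured markers of segments S1 and S2 all had higher means in PEC-enriched isolates, with a median log2 fold change of 1.01. All 4 were also among the 12 proximal tubule markers above. In 1 of the 4 the PEC-enriched arrays all lay above, against 9.68% of all genes. Of the 5 measured markers of segment S3, 2 were higher and 3 lower, with a median of -0.09. Among the lower ones, Slc22a7 and Slc22a24 stood at only -0.09 and -0.10. All values of Slc22a7, Slc22a24 and Slc5a1 lay below the array medians, and their signal over background is unknown. Aadat, an aminotransferase of lysine breakdown, stood at 1.39 and Slc5a1, the sodium-glucose carrier of the late tubule, at 0.52, each with all PEC-enriched arrays above. Aadat is also in the study's own list, chosen on the same arrays, so its direction is not independent evidence. Cyp7b1, an oxysterol hydroxylase, stood at -0.51, with all PEC-enriched arrays below. In limma 0 of these markers had an adjusted p under 0.01, and 6 of the S1, S2 and S3 markers were higher and 1 was lower at an unadjusted p under 0.05, against 7.96% and 5.65% of all genes.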
